A study of Mus musculus with 6 samples.

Results

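The segments described are the 103 immunoglobulin kappa variable (Igkv) gene segments of the mouse, chosen as every row whose gene symbol starts with Igkv in a table of 37447 genes. The table gives FPKM, that is, fragments per kilobase of transcript scaled to the mapped fragments, so a value is a level relative to the rest of its library. The RNA was that of flow-sorted microglia, and the C57BL/6 mice whose optic nerves supplied them were 3 months old. In the group called FMC (4 libraries, of which FMC 2 and FMC 3 are labelled male and the others female) the genotype was Nf1 flox/mut; GFAP-Cre. In the group called FM (2 libraries, FM 1 labelled male and FM 2 female) the genotype was Nf1 flox/mut without Cre. Both groups therefore carried a floxed and a mutant allele of Nf1, the neurofibromatosis type 1 gene, and Cre was driven by the promoter of the astroglial gene GFAP, not by a microglial one. The labels call the libraries biological replicates and do not say whether mice were pooled. The series is titled as a study of microglia in Nf1 glioma.

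Antibodies are made by B cells and the plasma cells that derive from them. A kappa light chain is encoded after recombination has joined 1 of many variable segments to a joining segment (Igkj), and the joined exon is spliced to the constant exon of Igkc. Each B cell clone carries its own joined segment, so B-lineage RNA of few clones holds few segments and RNA of many clones holds many. Assembly of kappa genes is a feature of the B lineage, and which cells the kappa RNA here came from was not tested. In bulk RNA, fewer B-lineage cells and less kappa RNA per cell cannot be told apart.

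The libraries carried the markers of the labelled cell type. All 10 microglial markers were detected in all libraries, with summed levels of 2772 to 4850 FPKM in FMC and of 2809 and 5653 FPKM in FM, among them the receptor genes P2ry12 (185 to 311 FPKM in FMC, 239 and 403 FPKM in FM) and Csf1r (587 to 815 FPKM in FMC, 600 and 963 FPKM in FM). Nf1 was at 48.0 to 138 FPKM in FMC and at 39.3 and 50.0 FPKM in FM, which does not check a deletion in GFAP-expressing cells. FMC 1 stood apart in T cell markers. Its 10 T cell markers summed to 138 FPKM, against 27.1 to 37.0 FPKM in the other FMC libraries and 23.5 and 30.3 FPKM in FM 1 and FM 2. For the segment sum, Igkc, most list medians and some differences of single segments, values without FMC 1 are also given.

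The 103 segments lie on chromosome 6 and fall into 19 families, named by the first number of the symbol. All 103 symbols were found in the GENCODE M21 annotation (build GRCm38), and 56 also by Ensembl identifier. GENCODE gives 95 of them as variable genes and 8 as pseudogenes, and 101 have 2 exons, a leader exon and the V exon that encodes the variable domain. The V exons are 89 to 322 bases long, with a median of 303 bases. To show how unlike the segments named most often below are, the last 120 bases of 6 V exons follow, from GENCODE transcripts in GRCm38. They are the 4 segments that were highest in a library (Igkv8-30, Igkv9-124, Igkv10-96 and Igkv4-53) and the 2 with the smallest p in the comparison of FMC with FM (Igkv17-127 and Igkv8-21). Capitals mark the codons for tyrosine, tyrosine or phenylalanine, and cysteine. This cysteine closes the disulfide bond of the variable domain, and the bases after it begin the part of the chain that recombination completes.
Igkv8-30 (chr6:70117061-70117180, GRCm38, minus strand): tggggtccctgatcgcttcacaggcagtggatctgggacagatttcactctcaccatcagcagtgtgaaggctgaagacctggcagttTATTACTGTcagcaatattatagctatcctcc
Igkv9-124 (chr6:67942074-67942193, GRCm38, minus strand): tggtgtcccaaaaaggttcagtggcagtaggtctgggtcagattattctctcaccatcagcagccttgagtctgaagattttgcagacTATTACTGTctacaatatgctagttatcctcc
Igkv10-96 (chr6:68631963-68632082, GRCm38, minus strand): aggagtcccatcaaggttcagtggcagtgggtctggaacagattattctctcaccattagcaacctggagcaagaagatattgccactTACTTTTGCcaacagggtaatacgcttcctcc
Igkv4-53 (chr6:69648824-69648943, GRCm38, minus strand): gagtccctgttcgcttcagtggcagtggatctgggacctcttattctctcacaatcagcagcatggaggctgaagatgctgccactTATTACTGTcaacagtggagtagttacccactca
Igkv17-127 (chr6:67861540-67861659, GRCm38, plus strand): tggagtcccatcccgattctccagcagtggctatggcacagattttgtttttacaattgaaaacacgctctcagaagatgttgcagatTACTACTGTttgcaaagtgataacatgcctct
Igkv8-21 (chr6:70314895-70315014, GRCm38, minus strand): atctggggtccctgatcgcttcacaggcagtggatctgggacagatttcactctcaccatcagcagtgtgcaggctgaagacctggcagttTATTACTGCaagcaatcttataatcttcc
Over whole V exons, the 4 leading segments matched each other at 63.7 to 78.9% of bases (Igkv8-30 with Igkv10-96 the least, Igkv9-124 with Igkv10-96 the most). Igkv8-30 and Igkv8-21, of the same family, matched at 92.1%.

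Near-identical segments are the reason to read single values with care, since reads can be divided between them. Of the 103 segments, 43 have another with at least 95% identity in the V exon. Igkv17-127 has a close copy in Igkv17-121, and the V exons of both follow, with capitals at the 6 of 298 bases that differ.
Igkv17-127 (chr6:67861362-67861659, GRCm38, plus strand): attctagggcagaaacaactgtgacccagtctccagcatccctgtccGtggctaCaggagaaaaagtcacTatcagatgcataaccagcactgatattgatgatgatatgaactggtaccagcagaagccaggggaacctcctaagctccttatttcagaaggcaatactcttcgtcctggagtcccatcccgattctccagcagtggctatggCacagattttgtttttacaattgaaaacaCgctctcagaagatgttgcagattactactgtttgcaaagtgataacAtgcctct
Igkv17-121 (chr6:68037021-68037318, GRCm38, plus strand): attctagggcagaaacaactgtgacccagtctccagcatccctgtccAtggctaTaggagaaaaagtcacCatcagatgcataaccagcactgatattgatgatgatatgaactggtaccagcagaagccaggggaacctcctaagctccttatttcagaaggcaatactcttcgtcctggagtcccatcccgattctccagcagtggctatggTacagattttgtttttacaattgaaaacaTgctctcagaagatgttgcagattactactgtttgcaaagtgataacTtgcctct
Igkv17-127 was at 402, 428, 110 and 66.9 FPKM in FMC 1 to FMC 4, against 2.51 and 1.16 FPKM in FM 1 and FM 2. Igkv17-121 was at 130, 0, 9.32 and 0 FPKM in FMC 1 to FMC 4, against 0.768 and 2.81 FPKM in FM 1 and FM 2. The table thus lists one of the pair at 428 FPKM and the other at 0 in FMC 2. Levels of close copies were also far apart elsewhere: of the 10 most alike pairs of V exons (96.8 to 99.0% identity), 9 differed by over 10-fold on the FPKM + 1 scale in at least 1 library. The exception was Igkv1-117 with Igkv1-110. How often less alike pairs of segments differ so far was not computed, so the count is a description alone. How the authors' counting assigned shared reads is not stated in the labels, and its part in these levels was not tested.

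The number of segments detected did not separate the genotypes. Above 0 FPKM there were 77, 62, 71 and 63 segments in FMC 1 to FMC 4, against 68 and 66 in FM 1 and FM 2. The mean was 68.3 ± 7.1 (SD, n = 4) in FMC and 67.0 ± 1.4 (SD, n = 2) in FM, and the groups overlapped. As shares of the 103 segments these are 60.2 to 74.8% in FMC, against 66.0 and 64.1% in FM. Of all 37021 genes with a value in every library, 62.2 to 68.4% were above 0 in FMC, against 69.2 and 68.2% in FM. FMC 1 had the most segments above 0 and the fewest genes above 0 of the 6 libraries.

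Higher levels gave an overlap or not by the level asked for. Segments with at least 10 FPKM numbered 63, 35, 40 and 37 in FMC 1 to FMC 4, against 33 and 29 in FM 1 and FM 2, so the groups did not overlap, with 35 against 33 as the nearest values. These are 61.2, 34.0, 38.8 and 35.9% of the segments in FMC, against 32.0 and 28.2% in FM. Of all genes with values, 16.1 to 18.6% reached 10 FPKM in FMC, against 16.8 and 19.2% in FM. Segments with at least 1 FPKM (59 to 73 in FMC, 62 and 50 in FM), with at least 100 FPKM (40, 14, 10 and 8 in FMC, 10 and 6 in FM) and with at least 1000 FPKM (9, 3, 0 and 2 in FMC, 0 and 0 in FM) overlapped. The median of the segments above 0 was 121 FPKM in FMC 1 and 15.9 to 17.5 FPKM in the other FMC libraries, against 9.26 and 6.95 FPKM in FM 1 and FM 2. The lowest level above 0 was 0.505 to 1.00 FPKM in FMC, against 0.664 and 0.238 FPKM in FM. Read counts were not used here, so the number of fragments behind such a level is unknown.

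Few segments were found everywhere. Of the 103, 23 were above 0 in all 6 libraries, 22 in 5, 23 in 4, 16 in 3, 5 in 2 and 9 in 1. The other 5 were listed at 0 throughout, namely Igkv4-62, Igkv5-37, Igkv18-36 and the pseudogenes Igkv2-95-2 and Igkv13-87. In 13 segments an FMC library but no FM library was above 0, in 3 an FM library but no FMC library, and FMC has 4 libraries to the 2 of FM. These are 12.6 and 2.91% of the segments, against 6.13 and 2.84% of all genes with values. In 4 segments (Igkv10-94, Igkv4-58, Igkv8-27 and Igkv3-3) all FMC libraries were above 0 and both FM libraries were listed at 0, which is 3.88% of the segments against 0.192% of all genes with values. The converse, above 0 in both FM libraries and at 0 in all FMC libraries, held for 0 segments, against 0.524% of all genes. Igkv10-94 has a close copy, Igkv10-95, with 97.0% identity in the V exon. The copy was at 65.6, 8.78, 95.5 and 17.8 FPKM in FMC 1 to FMC 4, against 22.2 and 31.7 FPKM in FM 1 and FM 2. How reads were divided between these copies was not tested. Of the 98 segments above 0 anywhere, 48 were highest in FMC 1.

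**Figure D1:**
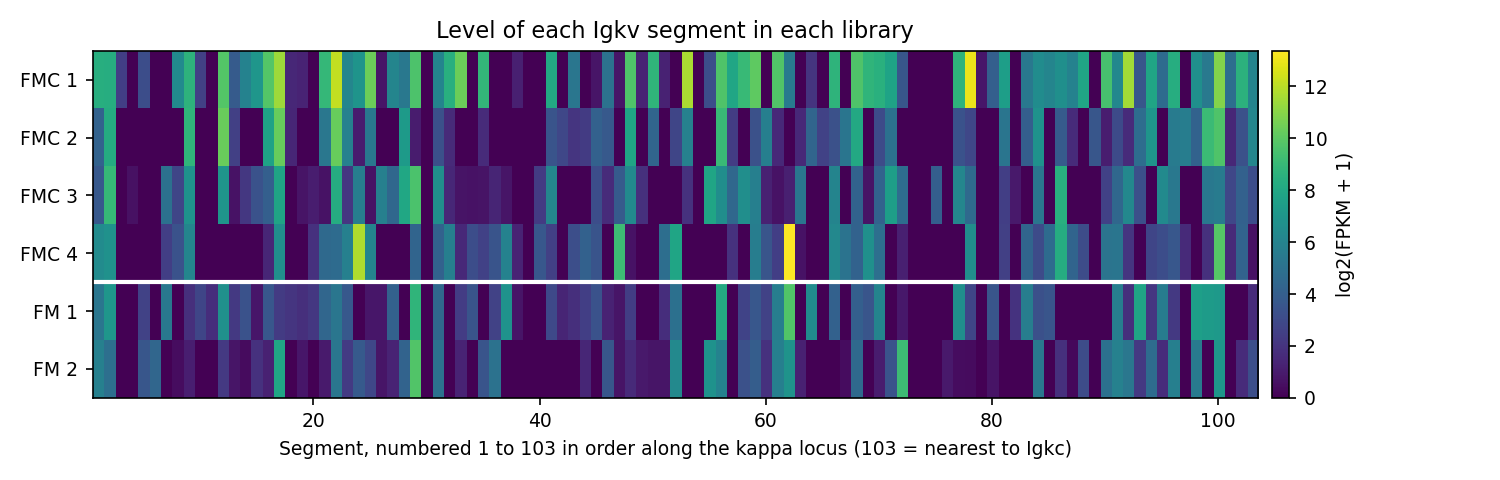
Level of each of the 103 Igkv segments (columns, in order along the locus) in each library (rows, FMC above FM), as log2(FPKM + 1) by colour. Bright columns differ from row to row, and the brightest are Igkv8-30 in FMC 1 (8250 FPKM) and Igkv4-53 in FMC 4 (10637 FPKM).

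The summed level of the 103 segments was higher in every FMC library than in either FM library. The sum was 42529, 8289, 4459 and 17687 FPKM in FMC 1 to FMC 4, against 3540 and 2913 FPKM in FM 1 and FM 2. FMC 3 lay nearest to FM, and FMC 1 alone held more than the other 5 libraries together. The mean was 18241 ± 17119 FPKM (SD, n = 4) in FMC and 3226 ± 444 FPKM (SD, n = 2) in FM, a ratio of 5.65, and of 3.14 without FMC 1. As a share of all FPKM of a library, the segments made up 6.30, 1.84, 0.901 and 2.74% in FMC 1 to FMC 4, against 0.842 and 0.479% in FM 1 and FM 2. No p-value is given for the sum or for the shares below, since they are scores over the segments.

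Igkc, the constant exon that every kappa transcript shares, gave the same order of libraries as the sum of the segments. Igkc (ENSMUSG00000076609, chromosome 6 from 70676429 to 70676751 in mm9) was at 49907, 10620, 6236 and 16959 FPKM in FMC 1 to FMC 4, against 3363 and 2585 FPKM in FM 1 and FM 2. The groups did not overlap. Its log2 difference of 2.38 (1.82 without FMC 1) was not called in the fit over all genes (limma, adjusted p = 0.939), and an exact two-sided permutation test gave p = 0.133, where 15 splits allow no less than 0.0667. The sum of the segments divided by Igkc was 0.852, 0.781, 0.715 and 1.04 in FMC 1 to FMC 4, against 1.05 and 1.13 in FM 1 and FM 2, so this ratio was lower in every FMC library. The 5 joining segments Igkj1 to Igkj5 were listed at 0 in all libraries.

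Since the sum and Igkc were higher in every FMC library than in either FM library, any subset must show FMC higher. The ratios below give sizes only and add no support. Some FMC and FM libraries carry titles dated 1 day apart, although no label tells what was done on those dates. The segment sum in FMC 2 was 2.34 times that in FM 1, and in FMC 3 it was 1.53 times that in FM 2, where sex differs as well. FMC 1 and FMC 4, which had the highest sums, have no FM library dated so near. With these dates as a block, the limma log2 difference of Igkc was 1.46, against 2.38 without a block. Among male libraries the FMC mean was 1.80 times FM 1, and among female libraries it was 10.3 times FM 2, or 6.07 times with FMC 4 alone.

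**Figure D2:**
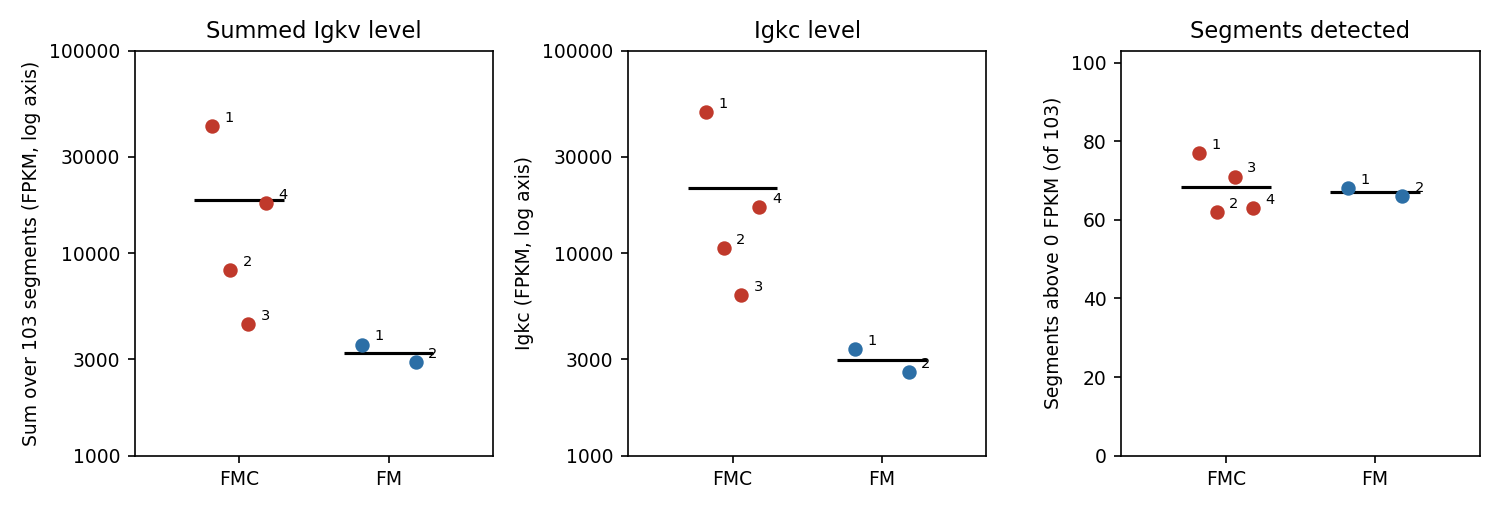
Summed Igkv level and Igkc level (FPKM, log axes) and number of segments above 0 FPKM in each library, numbered by replicate, with lines at the group means. The sum and Igkc are higher in all 4 FMC libraries than in both FM libraries, while the numbers of segments (62 to 77 in FMC, 68 and 66 in FM) overlap.

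Different segments led in different libraries. Igkv8-30 led in FMC 1 with 8250 FPKM (19.4% of the segment sum), Igkv9-124 in FMC 2 with 1286 FPKM (15.5%), Igkv10-96 in FMC 3 with 763 FPKM (17.1%) and Igkv4-53 in FMC 4 with 10637 FPKM (60.1%). In FM 1 Igkv4-53 led with 852 FPKM (24.1%), and in FM 2 Igkv10-96 with 859 FPKM (29.5%). The highest segment thus held 15.5 to 60.1% in FMC, against 24.1 and 29.5% in FM, and the FM libraries lay between FMC libraries. The mean share was 28.0 ± 21.5% (SD, n = 4) in FMC and 26.8 ± 3.8% (SD, n = 2) in FM. Without FMC 4 the difference of the means, FMC minus FM, was -9.45 percentage points, against 1.25 with it.

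FMC 4 was the library most dominated by few segments. Its 3 highest segments held 85.6% of the sum, against 36.0 to 45.1% in the other FMC libraries and 44.3 and 57.8% in FM 1 and FM 2. The effective number of segments (inverse Simpson index, the number of equally abundant segments that would give the same concentration) was 13.7, 10.6, 14.7 and 2.46 in FMC 1 to FMC 4, against 10.4 and 6.98 in FM 1 and FM 2. To reach 90% of the sum took 27, 14, 25 and 5 segments in FMC 1 to FMC 4, against 20 and 18 in FM 1 and FM 2. By this measure too the FM libraries lay inside the range of the FMC libraries.

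**Figure D3:**
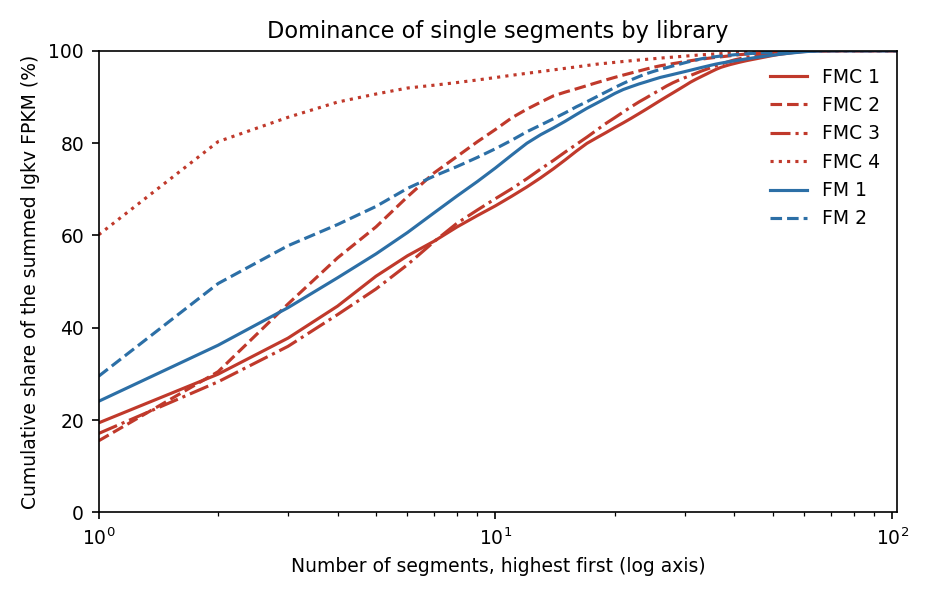
Cumulative share of the summed Igkv FPKM (vertical axis, %) against the number of segments counted from the highest down (log axis), 1 line per library, FMC in red and FM in blue. FMC 4 starts at 60.1% with 1 segment and the other libraries at 15.5 to 29.5%.

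The leading segments were mostly scarce where they did not lead. Igkv4-53 (chromosome 6 from 69598818 to 69599109 in mm9, a row of under 350 bases, as are 18 of the 103) was at 44.8, 0, 1.27 and 10637 FPKM in FMC 1 to FMC 4, against 852 and 114 FPKM in FM 1 and FM 2. Its level was thus higher in both FM libraries than in 3 of the 4 FMC libraries. Igkv8-30 (70067055 to 70067611) was at 8250, 6.07, 22.7 and 94.5 FPKM in FMC 1 to FMC 4, against 6.02 and 0.292 FPKM in FM 1 and FM 2. The FMC values were all above the FM values, by little in FMC 2. Neither was called in the fit described further on (limma, log2 difference -3.27 with adjusted p = 0.993 for Igkv4-53, and 5.15 with adjusted p = 0.956 for Igkv8-30). With a library left out, the difference of Igkv4-53 ran from -6.06 (without FMC 4) to -1.60 (without FMC 2), and was -1.83 without FM 1. That of Igkv8-30 was 3.06 without FMC 1 and at most 6.46. Igkv9-124 (67892068 to 67892354) was at 891, 1286, 127 and 0 FPKM in FMC, against 104 and 3.59 FPKM in FM, and the groups overlapped. Igkv10-96 (68581957 to 68582424) was at 804, 1.00, 763 and 18.6 FPKM in FMC, against 430 and 859 FPKM in FM, so it was abundant in 4 libraries, both FM libraries among them.

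The other segments of high mean level were Igkv3-4, Igkv1-117, Igkv1-110 and Igkv16-104. Igkv3-4 was at 1878, 828, 46.0 and 932 FPKM in FMC 1 to FMC 4, against 151 and 134 FPKM in FM 1 and FM 2. It held between 1.03 and 9.99% of the sum in FMC, against 4.26 and 4.59% in FM. Igkv1-117 was at 2757, 1241, 222 and 97.4 FPKM in FMC, against 4.06 and 238 FPKM in FM, and its close copy Igkv1-110 at 4487, 1215, 307 and 24.5 FPKM, against 36.9 and 37.8 FPKM. These copies were both high in FMC 1 to FMC 3. Igkv16-104 was at 121, 1.03, 51.0 and 3569 FPKM in FMC, against 0 and 12.8 FPKM in FM, so 1 library, FMC 4, holds nearly all of it.

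Of the 103 segments, 33 ranked among the 10 highest of at least 1 library, and 19 of these in 1 library alone. No segment was among the 10 highest of all 6 libraries. Igkv1-117 (all but FM 1) and Igkv3-4 (all but FMC 3) were so in 5 libraries, and Igkv1-135 in FMC 2, FMC 3, FMC 4 and FM 1.

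**Figure D4:**
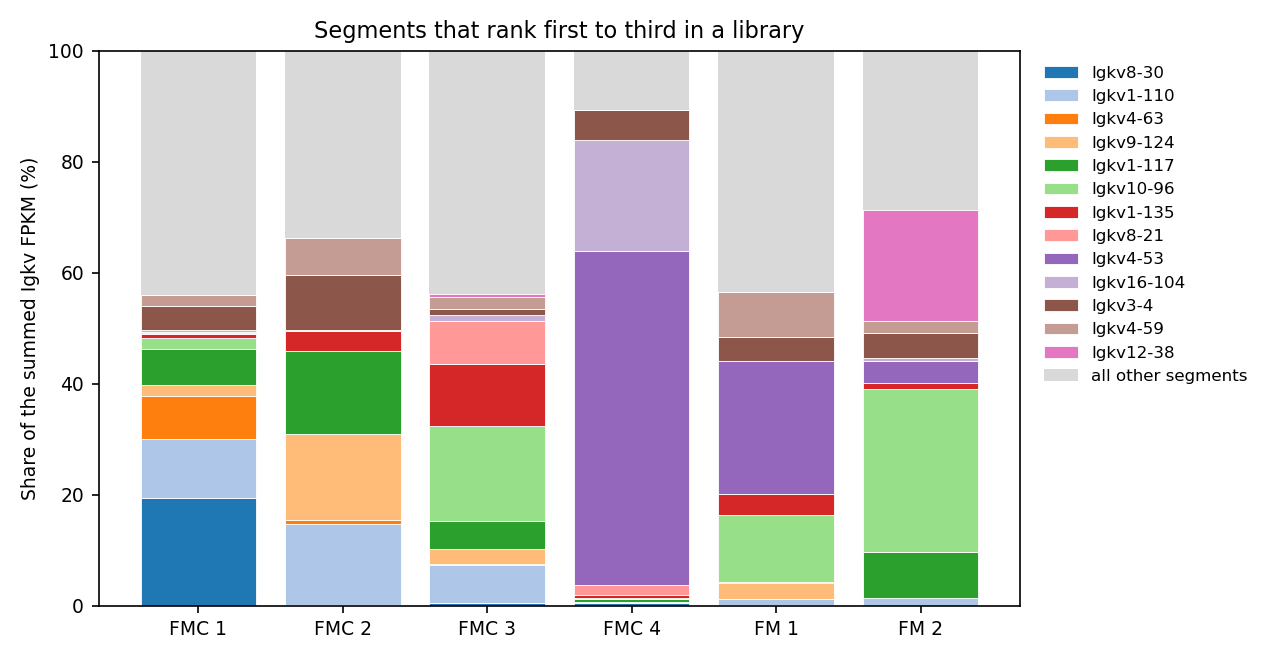
Share of the summed Igkv FPKM (%) held in each library by the 13 segments that ranked among the 3 highest in at least 1 library, with all other segments in grey. Igkv4-53 fills 60.1% in FMC 4 and 24.1% in FM 1, and Igkv10-96 fills 29.5% in FM 2 and 17.1% in FMC 3.

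Likeness in segments between libraries covered overlapping ranges within and between the genotypes. The share of the segment sum that a pair of libraries had in common (the sum over segments of the smaller of the 2 shares) was 9.10 to 39.8% over the 6 pairs within FMC. It was 34.4% for the FM pair and 14.3 to 41.0% over the 8 pairs of an FMC with an FM library. The highest of all 15 pairs was FMC 3 with FM 2, at 41.0%. Over the 103 segments, which are not independent replicates, Spearman's rho was 0.26 to 0.52 within FMC, 0.32 for the FM pair and 0.28 to 0.46 between the groups.

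By family, the 26 segments of family 4 held 11.6 to 65.7% of the sum in FMC, against 36.3 and 17.4% in FM. The 11 segments of family 1 held 18.1, 33.2, 24.0 and 1.31% in FMC 1 to FMC 4, against 5.80 and 11.6% in FM 1 and FM 2. The 3 segments of family 10 held 2.86, 0.142, 19.3 and 0.506% in FMC, against 12.8 and 30.6% in FM. The families whose summed level lay higher in all FMC libraries than in both FM libraries were family 8, with 8935, 186, 429 and 459 FPKM in FMC against 79.4 and 108 FPKM in FM, and family 17. Family 17 was at 537, 428, 120 and 66.9 FPKM in FMC against 3.28 and 3.97 FPKM in FM, and in FMC most of this was Igkv17-127. Its shares were 1.26, 5.16, 2.69 and 0.378% in FMC, against 0.0927 and 0.136% in FM. No family had a lower summed level in all FMC libraries than in both FM libraries. By share family 2 was lower, at 0.367 to 0.958% in FMC, against 1.59 and 2.03% in FM.

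Place and strand in the locus were compared as a description. Of the 103 segments, 40 lie on the strand of Igkc (plus, in GRCm38) and 63 on the other strand, from which joining to Igkj inverts the DNA between them. Segments on the plus strand held 36.6, 64.2, 45.0 and 29.2% of the sum in FMC 1 to FMC 4, against 27.7 and 24.9% in FM 1 and FM 2, so these groups did not overlap. The 51 segments farthest from Igkc held 40.3, 63.9, 62.1 and 28.0% in FMC, against 30.2 and 48.0% in FM. The 8 pseudogenes held 0.0202 to 3.36% in FMC, against 0.328 and 0.140% in FM. The highest pseudogene value was Igkv4-73 in FMC 4, at 583 FPKM.

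The comparison of FMC with FM asks whether levels of single segments differ between sorted-cell libraries with and without Cre. Values were tested as log2(FPKM + 1) with limma over 18208 genes (those reaching 1 FPKM in 2 or more libraries), and 87 of the 103 segments were among these. At an adjusted p under 0.05 limma called 0 segments higher in FMC, where 0% of all genes tested were called, and 0 lower, where 0.0275% were. At an unadjusted p under 0.05 (limma), 11 of the 87 segments were higher, where 1.14% of all genes tested were. At that threshold 0 segments were lower, where 4.20% of all genes tested were. A segment could enter the fit through the group where it was high, so the count of 11 is a description and supports no result.

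Over all 103 segments and with no filter, the 4 FMC values exceeded both FM values in 8 (7.77%), against 2.69% of all 37021 genes with values. These 8 were Igkv17-127, Igkv10-94, Igkv4-58, Igkv8-30, Igkv8-27, Igkv8-21, Igkv3-3 and Igkv3-2. The FMC values were all below both FM values in 0 of the 103, against 6.61% of all genes. The mean level was higher in FMC in 77 segments (74.8%) and lower in 21 (20.4%). Of all genes with values, 40.2% were higher and 41.7% lower in FMC, and the rest had equal means. Without FMC 1 the mean level was higher in 63 segments and lower in 33, and shares of all genes were not computed for this. The median log2 difference over the 103 segments was 0.93, and 0.20 without FMC 1, against 0.00 over all genes with values.

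Igkv17-127 (chromosome 6 from 67811153 to 67811653 in mm9) was the segment with the smallest p. Its lowest FMC level, 66.9 FPKM in FMC 4, lay far above its higher FM level, 2.51 FPKM in FM 1. It held 0.945, 5.16, 2.48 and 0.378% of the segment sum in FMC 1 to FMC 4, against 0.0710 and 0.0397% in FM 1 and FM 2, so its share as well as its level was higher in every FMC library. The log2 difference was 6.11 ± 0.80 (SE) and did not pass across all genes (limma, adjusted p = 0.0771). Without FMC 4 it was called (limma, adjusted p = 0.0326), within a range of 0.0326 to 0.925 over all alternatives.

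Igkv8-21 (70264889 to 70265446) was at 99.7, 13.2, 342 and 309 FPKM in FMC 1 to FMC 4, against 0 and 2.65 FPKM in FM 1 and FM 2. The groups did not overlap, and the log2 difference was 5.86 ± 1.22 (SE, limma adjusted p = 0.365). It ranked number 3 in FMC 3, with 7.68% of the sum, and held 0.159 to 1.74% in the other FMC libraries. Igkv8-27, of the same family, was at 179, 35.5, 4.50 and 4.84 FPKM in FMC and listed at 0 in both FM libraries (limma, adjusted p = 0.672).

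Of the other segments among the 10 with the smallest p, Igkv3-2 was at 387, 9.13, 17.0 and 17.9 FPKM in FMC, against 0 and 2.14 FPKM in FM. Igkv1-135 was at 326, 296, 499 and 109 FPKM in FMC, against 129 and 28.3 FPKM in FM, with an overlap through FMC 4 and FM 1. Igkv4-58 was at 244, 4.23, 20.8 and 2.77 FPKM in FMC and listed at 0 in both FM libraries. In Igkv3-2 and Igkv4-58, FMC 1 was at least 10 times as high as any other library. Without FMC 1 the log2 differences were 3.09, against 4.26 with it, for Igkv3-2 and 2.92, against 4.17 with it, for Igkv4-58.

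Igkv12-46 was at 409, 9.05, 64.9 and 75.2 FPKM in FMC, against 17.0 and 0 FPKM in FM, and overlapped through FMC 2. Igkv3-3 was at 28.0, 1.79, 6.26 and 2.07 FPKM, and Igkv10-94 at 345, 2.02, 1.77 and 53.1 FPKM, in FMC 1 to FMC 4, and both were listed at 0 in FM 1 and FM 2. Adjusted p (limma) ran from 0.0771 to 0.887 over these 10 segments, Igkv1-117 among them.

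**Figure D5:**
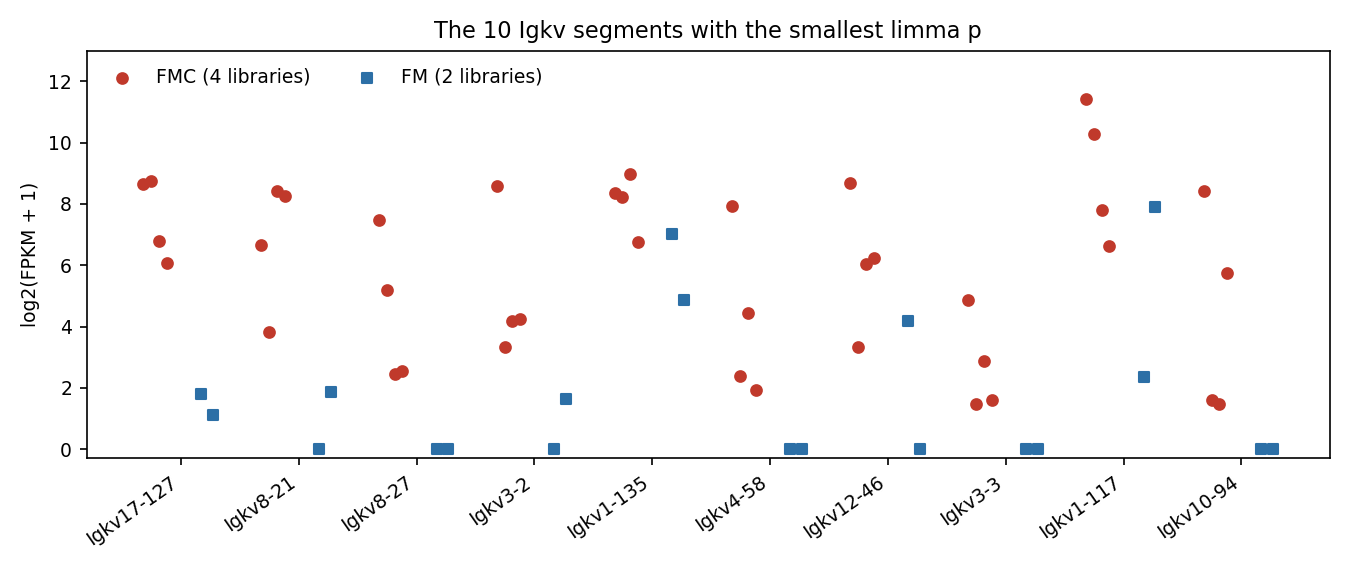
The 10 Igkv segments with the smallest limma p, as log2(FPKM + 1) in each FMC library (red circles) and each FM library (blue squares). The groups stand clear of each other in Igkv17-127, where FMC runs from 66.9 to 428 FPKM and FM is at 2.51 and 1.16 FPKM.

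Other genes of antibody production were read from lists, with limma calling 0 genes of any list in either direction and the background as above. Of 7 measured genes for heavy chain constant regions and the joining chain, 2 were higher in every FMC library than in both FM libraries and 1 was lower, with a median log2 difference of 0.43 (0.18 without FMC 1). Igj, the joining chain of secreted polymeric antibody, was at 30.7, 12.3, 3.13 and 9.62 FPKM in FMC 1 to FMC 4, against 0.878 and 1.25 FPKM in FM 1 and FM 2 (limma, adjusted p = 0.764). Ighg2b, a constant region of class G, was at 616, 60.6, 89.4 and 403 FPKM in FMC, against 3.04 and 49.6 FPKM in FM (limma, adjusted p = 0.676). Ighe, the constant region of class E, was at most 1.76 FPKM in FMC, against 4.76 and 3.83 FPKM in FM. Ighm, the constant region of the first class a B cell makes, was at 184 to 492 FPKM in FMC, against 243 and 193 FPKM in FM, and overlapped.

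Lambda light chain genes differed in direction from each other. Of 9 measured genes of lambda and surrogate light chains, 1 lay above in all FMC libraries (Igll1, a surrogate light chain, at 0.127 to 0.334 FPKM in FMC, against 0.0363 and 0 FPKM in FM) and 0 below. The median over lambda and surrogate genes together was -0.10, and 0.05 without FMC 1. The smallest p were those of Iglv2, Iglc2 and Iglc3, and their groups overlapped. The lambda constant region Iglc2 was at 8.57, 1.59, 2.44 and 1.66 FPKM in FMC 1 to FMC 4, against 5.14 and 30.5 FPKM in FM 1 and FM 2. The constant region Iglc3 was at 15.3, 1.93, 21.1 and 8.34 FPKM in FMC, against 4.50 and 0.117 FPKM in FM. The log2 differences were -1.84 for Iglc2 and -3.73 for Iglv2, but 2.01 for Iglc3, 1.64 for Iglv1 and 2.26 for Iglv3. The 3 lambda variable segments (Iglv1, Iglv2 and Iglv3) summed to 522, 11.4, 70.3 and 118 FPKM in FMC, against 42.0 and 155 FPKM in FM. They made up 0.137 to 1.55% of all light chain variable FPKM in FMC, against 1.17 and 5.05% in FM. The heavy chain variable segments summed to 27488, 6034, 4679 and 4044 FPKM in FMC, against 5163 and 5623 FPKM in FM, and overlapped.

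B cell markers were present in both groups. Of 15 markers, which summed to 168 to 361 FPKM in FMC and to 177 and 277 FPKM in FM, 1 was higher in every FMC library than in both FM libraries and 0 were lower, with a median log2 difference of 0.35 (0.16 without FMC 1). That 1 was Cd79a, a signalling chain of the B cell receptor, at 17.9, 4.88, 6.60 and 9.54 FPKM in FMC, against 0.742 and 1.60 FPKM in FM (limma, adjusted p = 0.747). Its partner Cd79b was at 2.33 to 45.8 FPKM in FMC, against 25.4 and 98.4 FPKM in FM, and Cd22, an inhibitory B cell receptor, at 9.16 to 18.2 FPKM, against 4.03 and 12.3 FPKM. None of the 15 was at 0 in all libraries. The part of B-lineage cells among the sorted cells in the segment levels was not tested.

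Of 10 plasma cell genes, 1 lay above in all FMC libraries (Slamf7, a receptor that macrophages also express, at 16.4 to 52.8 FPKM in FMC, against 1.28 and 2.92 FPKM in FM) and 0 below, with a median of -0.10, and of -0.19 without FMC 1. Derl3 and Xbp1, which serve secretion, had the next smallest p. Xbp1 was at 37.9 to 118 FPKM in FMC, against 61.4 and 120 FPKM in FM, and Derl3 at 6.90, 24.8, 0.0926 and 0.126 FPKM, against 0.153 and 0.0262 FPKM. Of 9 genes of V(D)J recombination, 0 lay above and 2 below, with a median of 0.03 (0.06 without FMC 1), and Rag2, Xrcc6 and Xrcc4 had the smallest p. The recombinase gene Rag1 was at 0.146 to 4.53 FPKM in FMC, against 2.37 and 1.66 FPKM in FM. Of 7 measured regulators of kappa transcription, 1 lay above (Pou2af1, a B cell coactivator) and 1 below (Rela, a subunit of NF-kappaB), with a median of 0.07, and of -0.09 without FMC 1. Pou2af1 was at 0.843 to 2.56 FPKM in FMC, against 0.602 and 0.369 FPKM in FM, and Rela at 5.77 to 21.7 FPKM in FMC, against a mean of 34.1 ± 5.9 FPKM (SD, n = 2) in FM. The octamer factor gene Pou2f1 and the E protein gene Tcf3 overlapped. Of 10 T cell markers 2 lay above (Cd5 and Lck) and 0 below, with a median of 0.89, and of 0.07 without FMC 1. Lck, a T cell kinase, was at 5.30 to 25.1 FPKM in FMC, against 3.04 and 2.21 FPKM in FM, while Cd247 and Zap70, of T cell receptor signalling, overlapped. Of 10 microglial markers 0 lay above and 1 below (Fcrls, at 5.23 to 21.1 FPKM in FMC, against 21.2 and 50.6 FPKM in FM), with a median of -0.22, and Olfml3 and P2ry12 overlapped. For comparison, the median was 0.00 over all genes with values and -0.12 over the genes in the fit. The list medians include measured genes that were not in the fit.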

How the data were processed

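Microglia from optic nerve were enriched on a Percoll gradient and flow sorted, and TRIzol-extracted RNA was amplified with the Ovation method and read by paired-end Illumina HiSeq sequencing, per the labels' protocols. Cufflinks 2.0.2, Bowtie2 2.0.0, TopHat2 2.0.4, CASAVA 1.8.2 and build mm9 are listed, without roles or settings, per the submitters' processing notes. The authors deposited FPKM for 37447 genes in each of 6 libraries. No counts were used here, so depth is unknown, count tests do not apply and intervals from counts are not given. In 426 rows a library has no value, and these rows were left out. A value of 0 can be a failed estimate. Table coordinates are given from 1.

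The segment total is the sum of Igkv FPKM, and detection means above 0. The fit used limma 3.58.1 in R 4.3.3 on log2(FPKM + 1) with limma's trend option. Its two-sided p-values were adjusted by Benjamini and Hochberg's method and called under 0.05. It was tested on simulated data. V exons were aligned pairwise with Biopython 1.88, with free end gaps. The members and lists (microglia, T cell, B cell, plasma cell, heavy chain, light chain, recombination and kappa regulators) were chosen with earlier results of these data known. Named segments are the highest of each library, the 6 highest by mean, the 10 with the smallest p, Igkc and the 3 genes of each list with the smallest p. Other genes and segments named (close copies, frequent or extreme ones, list members whose groups do not overlap and familiar markers) were chosen after their values were seen. The alternatives were another pseudocount, filter, scaling, trend, covariate, block, detection level, weighting by length and unit of diversity, and omission of each library. The labels call the libraries biological replicates without saying which mice gave them, so p-values measure the spread between these libraries.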

Additional observations from a re-analysis of the deposited data

Results flagged for a closer look

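In FMC, the share held by the highest segment was far from the others in FMC 4, where Igkv4-53 held 60.1% of the segment sum, against 15.5 to 19.4% in the other FMC libraries. Igkv3-2 stood apart on the log2(FPKM + 1) scale in FMC 1, at 387 FPKM against 9.13 to 17.9 FPKM in the other FMC libraries. Chance flags about 1 in 20 groups of this size, and 30 measures were looked at.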

How the results depend on the processing

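The count of segments called higher stayed at 0 in all alternatives but 1 and ran from 0 to 1 with a library left out. The 1 segment was Igkv17-127 without FMC 4, and 0 segments were called lower in any fit. Over all genes limma called 0 higher and 5 lower. With a pseudocount of 0.1 the counts were 1 and 0, and with titles 1 day apart as a block 2 and 1. The count lower was 0 with no filter, with a mean of at least 5 FPKM and with sex as a covariate, and 10 with no intensity trend. With a library left out the counts ran from 0 to 4 in both directions. With the replicate number as a block 0 genes were called lower, 0 higher and 0 segments in either direction. The labels do not say that a number pairs libraries, and the deviations of FMC 1 with FM 1 (r = 0.03) and FMC 2 with FM 2 (r = -0.06) did not move together.

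The difference in the number of segments detected (1.25, FMC minus FM) became 7.50 when at least 1 FPKM was asked for, and ran from -1.67 to 3.33 with a library left out. The log2 ratio of the segment sums (2.50) ran from 1.65 to 2.82, the difference in the share of the highest segment (1.25 percentage points) from -9.45 to 5.43, that of the 3 highest (0.0574) from -11.4 to 6.77 and that of the effective number (1.71) from 0.0237 to 4.35, all with a library left out. With Igkc and Igkj added to the total, the differences in the share of the highest and of the 3 highest turned to -0.598 and -2.71. For the effective number Igkc was counted as a further member beside the segments, and the difference turned to -0.818. That value is therefore not a number of segments alone. The change to 7.50 at 1 FPKM exceeded the spread between libraries (pooled SD). The other moves listed here were within it. No log2 difference of the 22 genes and segments followed here changed sign under any alternative. The median over all genes in the fit was -0.12, -0.03 with median ratio scaling and 0.04 with quantile normalization.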
